A study of Mus musculus with 6 samples.

Results

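The comparison described here is that of the area at risk (AAR), the myocardium supplied by the coronary artery that was tied, between mice with ischemic preconditioning (IPC) and mice with a sham procedure. It rested on 4 of the 6 arrays of the series: the AAR biopsies of IPC mice 004 and 008 and those of sham mice 012 and 013. According to the sample records, all were C56BL7 females of 12 months, and IPC consisted of 4 cycles of 4 min ischemia and 4 min reperfusion with a final reperfusion of 30 min, while the study's methods name C57BL6 mice of both sexes and longer cycles. The remaining 2 arrays held remote myocardium (RM) of the IPC mice, taken from the right ventricle by the methods, and are given only as a further reading beside the comparison. RM of the sham mice was not analysed here.

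In IPC, short harmless interruptions of blood flow render the heart more resistant to a later, longer ischemia. Long non-coding RNAs (lncRNAs) are transcripts without an evident protein product. Some of them, such as Neat1, build nuclear bodies, while for most no function is established. The array also covered long intergenic RNAs (lincRNAs) and transcripts from ultraconserved regions, stretches of genome that are identical between distant mammals. Probes for messenger RNAs stood beside them.

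Total RNA of each biopsy was hybridized to an Arraystar Mouse LncRNA Array v 2.0, on which the brightness of a spot (its intensity) reports the abundance of a transcript. Values are log2 intensities after quantile normalization, so that a difference of 1 is a 2-fold difference, and levels of different probes cannot be compared with each other. With 2 arrays per group, an exact test on a single probe cannot reach a p below 0.333, and the precision was limited by the number of arrays. All 4 IPC arrays lay on 1 slide and both sham arrays on another, so that slide and treatment cannot be told apart for any difference below. In a biopsy, fewer cells of a type and less RNA per cell cannot be told apart either. The files named none of the 54 cell type marker genes that were looked for, so the cell composition of the biopsies could not be checked. Xist, which coats the silenced X chromosome of females, read 12.80 to 13.31 on the 4 AAR arrays at the probe of ENSMUST00000127786, but 7.40 and 7.71 on the RM arrays of mice recorded as females and as the source of the IPC AAR biopsies, and values of the RM arrays are therefore given under the reservation that they went against their labels.

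Among called probes, more were lower than higher in the preconditioned AAR. Of 40161 tested probes, 3437 (8.56%) were called, meaning an adjusted p below 0.05 from limma with a fold change above 2. Of these, 2321 (5.78%) were lower and 1116 (2.78%) were higher in preconditioned than in sham tissue. Among called probes that were well above background on all 4 arrays, 113 were lower and 14 higher by more than 16-fold. The median log2 difference of all tested probes was 0.23 and 63.7% of them had a positive difference, so a typical probe read slightly higher in the IPC AAR. Scaling to the 75th percentile, in place of quantile normalization, moved this median to 0.33 and the calls to 2761 lower and 2189 higher. Without the sham array of mouse 012 there were 4711 lower and 4353 higher, and without the IPC AAR array of mouse 004 there were 209 and 46.

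**Figure D1:**
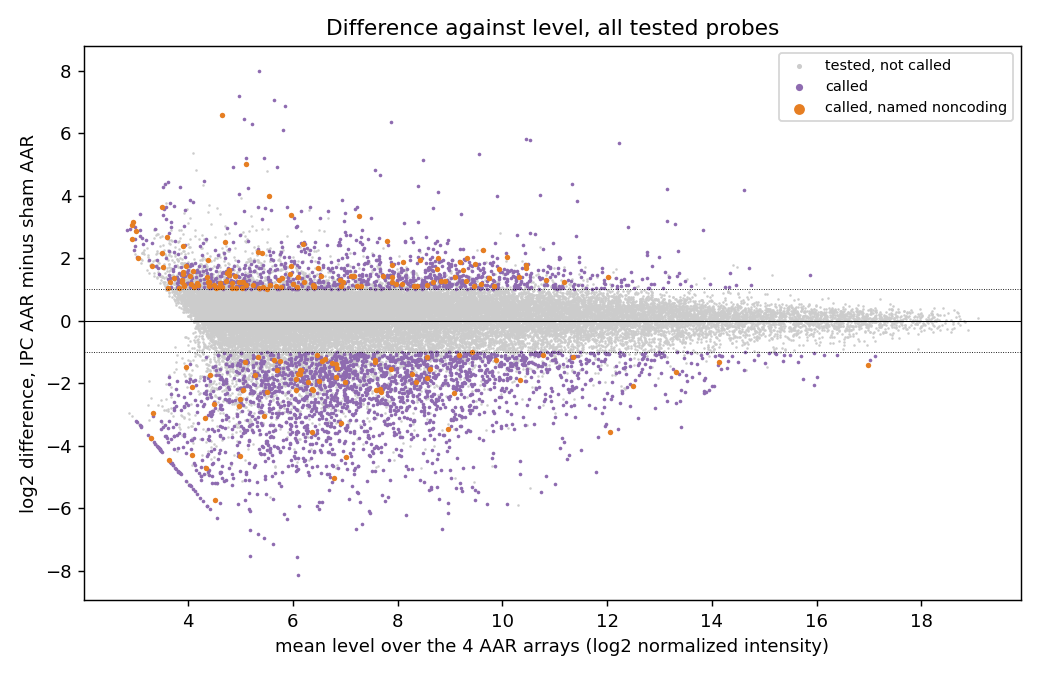
Difference between IPC AAR and sham AAR (vertical, log2) against the mean level over the 4 AAR arrays (horizontal, log2 normalized intensity) for the 40161 tested probes, 1 point per probe, with dotted lines at a 2-fold difference. Called probes are coloured. Beyond 16-fold there are 113 decreases and 14 increases among called probes detected above background on each of the 4 arrays, and the sloping line at the lower left is formed by probes at the lowest values in the IPC AAR.

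The IPC AAR arrays resembled each other more than the sham arrays did. The IPC AAR pair correlated at 0.988 across 40151 probes and the sham pair at 0.974, and probes are not independent replicates. A gap above 2-fold separated the arrays of a pair at 4.25% of the tested probes in the IPC AAR and at 10.8% in the sham AAR. Sham mouse 012 lay nearer to the IPC AAR than sham mouse 013 for 1903 of the 2321 probes called lower and 837 of the 1116 called higher, against 72.4% of all tested probes. The array of sham mouse 012 also had the fewest spots well above background, 36699 of 59994, against 43388 for sham mouse 013 and 40905 and 42422 for the IPC AAR. The part of signal over background in the differences was not tested.

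The transcripts that the study had listed as most changed lncRNAs between AAR and RM of the IPC mice were examined first. The list was drawn up on the IPC AAR arrays used here, so its members are described without support from their count. The sham arrays had no part in that choice. Probes for these 20 transcripts carry only design numbers, and each transcript was assigned to the probe whose IPC AAR and RM group means came nearest to those in the study's list, so the names rest on that match. Of the 10 listed as decreased, 6 were called lower and none higher against the sham AAR, and of the 10 listed as increased, 6 were called higher and none lower, with backgrounds of 5.78% and 2.78% of all tested probes.

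Among the listed transcripts, the lncRNA Gm6706 had the widest gap. It read 5.32 and 5.72 in the IPC AAR and 12.16 and 12.21 in the sham AAR. Both sham arrays lay far above both IPC AAR arrays and slightly above the RM arrays (11.69 and 11.94). The log2 difference was -6.67 (SE 0.20, adjusted p = 0.0123 from limma), a 102-fold decrease. Gm15466 read 7.93 and 8.05 in the IPC AAR and 13.39 and 13.55 in the sham AAR, a log2 difference of -5.48 (SE 0.16, adjusted p = 0.0123 from limma). Gm11839 read 4.74 and 4.00 against 9.71 and 10.64, and its log2 difference was -5.80 (SE 0.44, adjusted p = 0.0187 from limma). With normexp, another background correction, the log2 difference of Gm11839 was -3.89. In these predicted genes the sham mice differed from each other by less than 2-fold, and the groups were widely separated.

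Neat1, the RNA scaffold of the nuclear bodies named paraspeckles, read 5.72 and 6.02 in the IPC AAR and 9.99 and 11.95 in the sham AAR, a 34.3-fold decrease in the means (log2 difference -5.10, SE 0.72, adjusted p = 0.0368 from limma). The sham mice differed by 1.96 between themselves, and the log2 difference was -4.12 without sham mouse 013 and -6.08 without sham mouse 012. In other IPC mice, the study's qPCR of AAR against RM gave a far smaller decrease of Neat1 than its arrays did. The study discusses this discrepancy and calls the extent of the array changes uncertain. The study lists the transcript uc007zya.1 as a lncRNA in sense overlap with Son, which encodes a splicing cofactor of nuclear speckles. Whether its probe reports the Son messenger RNA was not tested. The transcript read 4.74 and 4.69 in the IPC AAR and 8.84 and 10.38 in the sham AAR. Its log2 difference was -4.89 (SE 0.56, adjusted p = 0.0277 from limma). AK050743 shared this arrangement, at 5.83 and 6.13 against 10.58 and 12.01 (log2 difference -5.31, SE 0.54, adjusted p = 0.0241 from limma). In all of them sham mouse 012 lay between the IPC AAR and sham mouse 013, though the groups did not overlap.

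The sham mice disagreed by far more on 4 further transcripts of the list. Gm15502 read 8.80 on both IPC AAR arrays, 9.50 in sham mouse 012 and 14.80 in sham mouse 013. Gm5379 read 5.99 and 5.71 in the IPC AAR, 6.63 in sham mouse 012 and 11.50 in sham mouse 013. Gm8459 read 6.43 and 6.49 in the IPC AAR, 7.12 in sham mouse 012 and 12.22 in sham mouse 013. Thus sham mouse 012 was within 1 of the IPC AAR and sham mouse 013 within 1 of the RM arrays, which read 15.25 and 15.20, 11.72 and 11.80, and 12.47 and 12.54. None of the 3 was called, with log2 differences of -3.35, -3.22 and -3.21 and adjusted p values of 0.265, 0.249 and 0.265 from limma. Gm11400 read 5.76 and 5.63 in the IPC AAR, 8.80 in sham mouse 012 and 11.52 in sham mouse 013, and was not called either (log2 difference -4.47, adjusted p = 0.0701 from limma), though it was in 6 of 14 alternative settings. The sham mice differed above 2-fold for 9 of the 20 transcripts, against 10.8% of all tested probes.

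**Figure D2:**
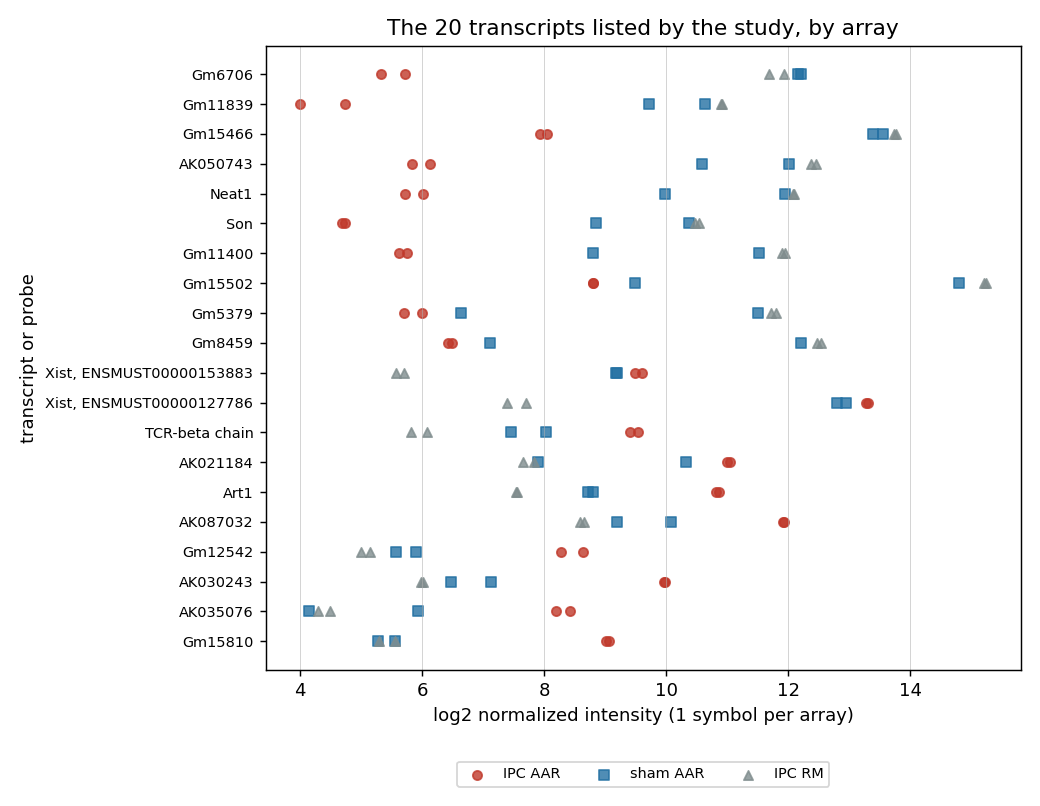
Log2 normalized intensity (horizontal) of the 20 transcripts listed by the study (vertical, ordered by the difference between IPC AAR and sham AAR), with 1 symbol per array for IPC AAR, sham AAR and IPC RM. The sham symbols lie close to each other for Gm6706 and Gm15466 and far apart for Gm15502, Gm5379 and Gm8459, where sham mouse 012 reads near the IPC AAR.

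Among the transcripts listed as increased, Gm15810 read 9.02 and 9.06 in the IPC AAR and 5.56 and 5.28 in the sham AAR, a 12.3-fold increase (log2 difference 3.62, SE 0.17, adjusted p = 0.0146 from limma). AK030243 read 9.98 and 9.96 against 6.47 and 7.13 (log2 difference 3.17, SE 0.28, adjusted p = 0.0206 from limma). For Gm15810 the sham AAR lay at the level of the RM arrays, and for AK030243 it lay above them. The transcript uc009iqv.1, which the study lists under the symbol Art1 and as antisense to another gene, read 10.81 and 10.86 in the IPC AAR and 8.80 and 8.72 in the sham AAR, with 7.55 on both RM arrays. Its log2 difference from sham was 2.07 (SE 0.14, adjusted p = 0.0173 from limma). Gm12542, AK087032 and the TCR-beta chain transcript, which belongs to the antigen receptor of T cells, were called higher as well, with log2 differences of 2.72, 2.30 and 1.72. AK021184 read 11.01 and 11.05 in the IPC AAR, 10.33 in sham mouse 012 and 7.91 in sham mouse 013, and was not called (log2 difference 1.91, adjusted p = 0.198 from limma). AK035076, at 3.28, missed the threshold too (adjusted p = 0.0621 from limma) and was called in 7 of 14 alternative settings.

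The Xist probes were not called. The probe of ENSMUST00000127786 read 13.31 and 13.28 in the IPC AAR and 12.95 and 12.80 in the sham AAR, and that of ENSMUST00000153883 read 9.49 and 9.60 against 9.20 and 9.18. The groups did not overlap, as for 71.7% of all tested probes, and the log2 differences were 0.42 (SE 0.15, adjusted p = 0.141) and 0.35 (SE 0.15, adjusted p = 0.171) from limma.

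The promoters of Son and of Nono, a protein of the paraspeckles that is described below, are shown. All arrays measured the RNA of Nono and, for Son, the transcript listed in sense overlap with it. Both promoters come from RefSeq on GRCm38.p6, plus strand, and run 5′ to 3′ from 250 bases before to 50 bases after the start of the gene. Son lies at chr16:91647574-91647873 and Nono at chrX:101429401-101429700. Capitals mark CCAAT and its reverse complement ATTGG, which together were found in 37.4% of 32851 promoters of this length. The Son window held 1 CCAAT and 2 ATTGG, and the Nono window 2 CCAAT, as a description of the letters and not of a binding site. No window was held for Neat1 in the reference used here.
Son: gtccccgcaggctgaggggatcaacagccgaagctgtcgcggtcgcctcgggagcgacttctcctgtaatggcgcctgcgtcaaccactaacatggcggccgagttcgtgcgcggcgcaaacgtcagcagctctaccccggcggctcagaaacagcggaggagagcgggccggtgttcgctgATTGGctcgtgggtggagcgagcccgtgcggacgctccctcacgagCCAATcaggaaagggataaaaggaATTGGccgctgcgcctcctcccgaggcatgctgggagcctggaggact
Nono: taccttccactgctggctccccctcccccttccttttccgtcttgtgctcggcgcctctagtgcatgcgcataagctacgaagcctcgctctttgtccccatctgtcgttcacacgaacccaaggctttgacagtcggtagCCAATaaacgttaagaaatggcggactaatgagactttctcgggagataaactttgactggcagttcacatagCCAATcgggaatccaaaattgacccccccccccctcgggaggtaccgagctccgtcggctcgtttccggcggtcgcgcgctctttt

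Probes that the files name as non-coding differed from the rest in the balance of directions. They comprised 4086 tested probes, of which 194 (4.75%) were called, 125 higher (3.06%) and 69 lower (1.69%). Probes known only by a design number, 35993 in all, carried 3242 of the calls, 990 higher (2.75%) and 2252 lower (6.26%). The files do not say which of the latter report messenger RNAs. The median log2 difference was 0.39 for the named non-coding probes and 0.21 for the probes with a design number. With normexp these medians were 0.18 and 0.11. The named non-coding probes were also dimmer, with a median level of 6.40 against 7.25. Across the quartiles of level of all tested probes, calls higher made up 24.0% to 40.8% of the calls, the most in the lowest quartile. The part of level in this contrast was not tested. Among calls well above background on all 4 arrays, 66 named non-coding ones were higher and 52 lower, against 725 and 1797 with a design number. Of tested named non-coding probes, 187 were well above background on both IPC AAR arrays and neither sham array, and 40 the other way. For all tested probes these numbers were 1061 and 548. The excess of increases was absent without sham mouse 013, with 61 named non-coding calls higher and 67 lower, and without IPC mouse 008, with 12 and 13.

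The classes of named non-coding RNA were not alike. Over all tested probes, 2.78% were called higher and 5.78% lower. Human lincRNA counterparts, mouse probes designed on lincRNAs found in human, had 22 calls higher (4.31%) and 2 lower (0.391%) among 511 tested probes. Their median log2 difference was 0.56, or 0.23 with normexp, and 44.6% of them lay in the lowest quartile of level. They had 6 higher and 4 lower calls without sham mouse 013, and 117 and 12 without sham mouse 012. Of the calls among human counterparts, 9 higher and 1 lower were well above background on all 4 arrays. In this class, 39 tested probes were well above background on both IPC AAR arrays and neither sham array, and 2 the other way. Exons of mouse lincRNAs had 57 calls higher (2.72%) and 40 lower (1.91%) among 2098, and the other mouse lincRNA probes 7 (2.27%) and 1 (0.324%) among 309. Ultraconserved regions had 13 higher (3.49%) and 11 lower (2.96%) among 372. For the mouse lincRNA and ultraconserved probes, the share called higher lay near that of all tested probes and the share called lower was smaller. Among calls well above background on all 4 arrays, 32 exon probes were higher and 30 lower. For the other mouse lincRNA probes these were 2 and 1, and for ultraconserved regions 7 and 8. Without sham mouse 013 the calls were 32 higher and 34 lower for the lincRNA exons, 0 and 2 for the other mouse lincRNA probes and 4 and 13 for ultraconserved regions, so these directions did not hold. Among 106 RIKEN transcripts with an AK accession the calls were 5 (4.72%) and 4 (3.77%). Among 591 expressed sequence tags or other accessions they were 19 (3.21%) and 7 (1.18%). Of UCSC known genes, 1 of 36 was called higher and 3 lower. The 59 Ensembl transcripts gave 1 call each way.

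**Figure D3:**
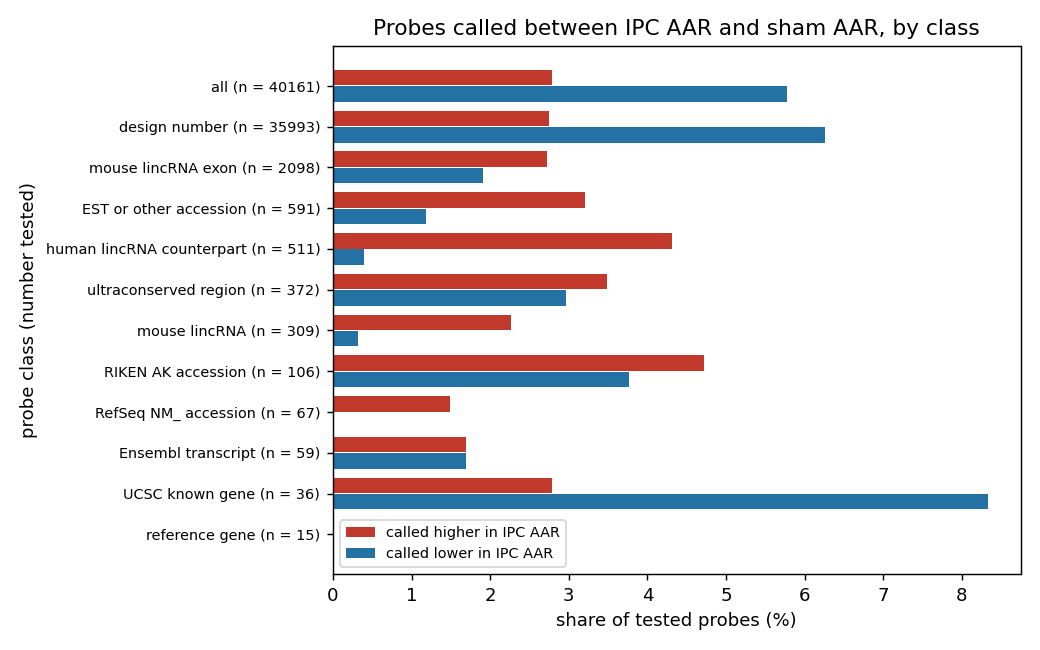
Share of tested probes (horizontal, %) called higher (red) or lower (blue) in the IPC AAR for each probe class, with the number tested in parentheses. Decreases exceed increases for all probes (5.78% against 2.78%), while for human lincRNA counterparts increases (4.31%) exceed decreases (0.391%). For these counterparts, 9 calls higher and 1 lower were well above background on all 4 arrays.

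The lincRNA probes with the largest differences, among those called and well above background on all 4 arrays, spanned a 20.5-fold decrease to a 10.1-fold increase. MM9LINCRNAEXON11297-_P1 read 4.86 and 4.83 in the IPC AAR and 9.14 and 9.25 in the sham AAR, with 9.40 and 9.45 in the RM (log2 difference -4.35, SE 0.15, adjusted p = 0.0138 from limma). The probe for the opposite strand of the same exon, MM9LINCRNAEXON11297+_P1, was lower as well, at 11.42 and 11.48 against 13.29 and 13.79 (log2 difference -2.09, SE 0.23, adjusted p = 0.026 from limma). MM9LINCRNAEXON11384-_P1 and MM9LINCRNAEXON10038-_P1 had log2 differences of -3.28 (SE 0.52) and -2.29 (SE 0.15). The plus strand probe of MM9LINCRNAEXON11384 was not called (log2 difference 0.78). The sham mice agreed within 0.10 on MM9LINCRNAEXON10038-_P1, at 6.70 and 6.60, but read 7.84 and 9.26 on MM9LINCRNAEXON11384-_P1.

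Of the increased lincRNA probes, MM9LINCRNAEXON10484+_P1 read 8.91 and 8.96 in the IPC AAR and 6.17 and 5.02 in the sham AAR (log2 difference 3.34, SE 0.43, adjusted p = 0.0325 from limma). MM9LINCRNAEXON10002-_P1 read 9.72 and 9.83 against 7.71 and 7.80, with close sham mice (log2 difference 2.02, SE 0.15, adjusted p = 0.0183 from limma). On both, the RM arrays lay at the sham side, at 5.89 and 5.62 and at 7.51 and 7.48. humanlincRNA2246-_P1 was different in this respect: it read 7.13 and 7.70 in the IPC AAR, 4.72 and 5.22 in the sham AAR and 7.04 and 7.05 in the RM (log2 difference 2.44, SE 0.30, adjusted p = 0.0306 from limma). Here all arrays of the IPC mice, which shared a slide, were high and both sham arrays low.

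Among transcripts from ultraconserved regions, uc.203+ read 10.26 and 10.27 in the IPC AAR and 13.37 and 14.29 in the sham AAR, with 14.52 and 14.60 in the RM (log2 difference -3.56, SE 0.36, adjusted p = 0.0239 from limma). uc.456+ read 7.12 and 7.33 against 10.31 and 11.08 (log2 difference -3.47, SE 0.32, adjusted p = 0.022 from limma), and uc.193- was lower by a log2 difference of -1.83 (SE 0.18). The RM arrays read 10.82 and 10.80 on uc.456+ and 10.03 and 9.97 on uc.193-. On each of these 3 probes the IPC AAR was the lowest group, and the RM lay nearer to the sham AAR. On uc.203+, however, sham mouse 012 lay more than 2-fold below both RM arrays. uc.460- read 11.14 and 11.06 in the IPC AAR, 9.23 and 8.91 in the sham AAR and 11.54 and 11.80 in the RM (log2 difference 2.03, SE 0.18, adjusted p = 0.0211 from limma). uc.18- and uc.371-, with log2 differences of 1.65 and 1.38, were arranged likewise, and their RM arrays read 9.72 and 9.86 and 12.97 and 13.33, above the IPC AAR.

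Nearness of the RM arrays to the sham AAR exceeded that of all tested probes for calls lower, but hardly for calls higher. For probes called lower, both RM arrays lay nearer to the sham AAR than to the IPC AAR in 96.2% of 2319 probes, against 65.3% of all tested probes and 67.1% of those called higher. Both RM arrays lay nearer to the IPC AAR for 22.4% of all tested probes and 26.4% of all called higher. Among the called ultraconserved regions, both RM arrays lay nearer to the sham AAR for 10 of the 10 lower ones with values on both RM arrays, and nearer to the IPC AAR for 7 of the 13 higher ones. Among human lincRNA counterparts called higher they lay nearer to the IPC AAR for 12 of 22, and among the named non-coding probes called higher for 44.0% of 125, with 45.6% nearer to the sham AAR. These RM arrays shared the slide, and by the records the mice, with the IPC AAR arrays, and the part of the slide was not tested.

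**Figure D4:**
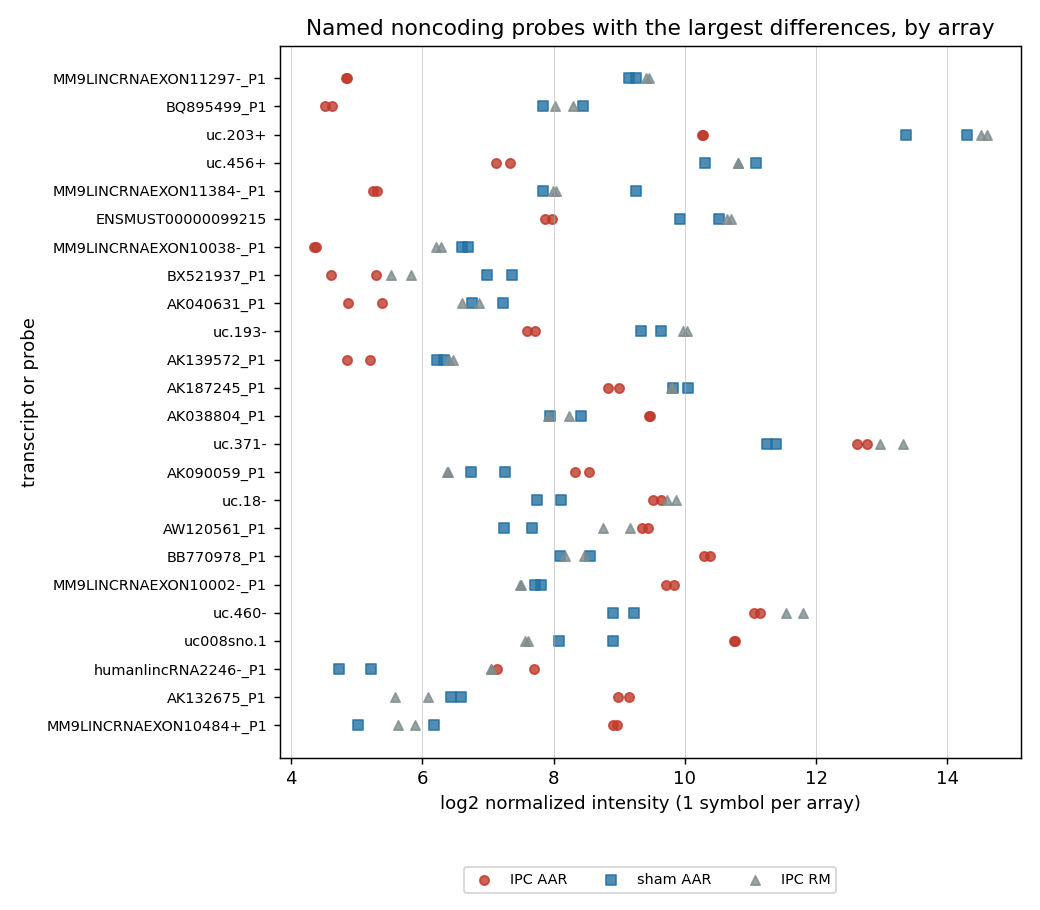
Log2 normalized intensity (horizontal) of the named non-coding probes with the largest differences in each class (vertical, ordered by the difference between IPC AAR and sham AAR), with 1 symbol per array. For most decreases the RM symbols lie beside the sham symbols, whereas for uc.460-, uc.18-, uc.371- and humanlincRNA2246-_P1 they lie beside or beyond the IPC AAR. For AW120561_P1 the RM symbols lie nearer to the IPC AAR than to the sham AAR.

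Probes for both strands were tested at 913 named loci. A single strand was called at 79 of them and both strands at 4, each time in the same direction. Single calls included MM9LINCRNAEXON10484, MM9LINCRNAEXON11384 and uc.456, whose other strand had the opposite sign (log2 differences -1.25, 0.78 and 0.28). For humanlincRNA2246, uc.18 and uc.371 the other strand had the same sign (0.55, 0.58 and 0.40) and was not called. The differences of both strands had the same sign at 607 of the 913 loci. Of all tested named non-coding probes, 76.5% had a positive difference, so equal signs are frequent in any pair of such probes. The called share was 4.75% of named non-coding probes and 8.56% of all tested probes. MM9LINCRNAEXON11053 was higher on both strands (8.91 and 8.93 against 7.98 and 7.66 on the plus strand, and 10.17 and 10.18 against 9.12 and 8.88 on the minus strand) and MM9LINCRNAEXON11297 lower on both. MM9LINCRNAEXON11087 was higher, by 1.13 on the plus strand. Its minus strand probe was not well above background on either sham array, which gave an increase of at least 1.53-fold. uc.203 was lower on both strands, although uc.203- was not well above background in the IPC AAR, so that only a decrease of at least 2.43-fold could be stated. These bounds set the mean of the brighter group against the lowest signal that counted as well above background on the arrays of the dimmer group, or the probe's own signal where that was higher.

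The remaining named non-coding transcripts were of other accessions. Among RIKEN cDNAs, AK132675_P1 read 8.97 and 9.15 in the IPC AAR and 6.59 and 6.43 in the sham AAR (log2 difference 2.55, SE 0.17, adjusted p = 0.0164 from limma), while AK040631_P1 read 4.86 and 5.38 against 6.76 and 7.23 (log2 difference -1.87, SE 0.29, adjusted p = 0.0411 from limma). AK090059_P1 and AK038804_P1 were higher by log2 differences of 1.43 and 1.28, and AK139572_P1 and AK187245_P1 were lower, with -1.25 and -1.02. Among the others, BQ895499_P1 had the largest decrease, from 7.83 and 8.45 in the sham AAR to 4.52 and 4.63 in the IPC AAR (log2 difference -3.57, SE 0.26, adjusted p = 0.0183 from limma). ENSMUST00000099215 and BX521937_P1 followed with -2.30 and -2.22. uc008sno.1 had the largest increase, from 8.90 and 8.08 to 10.77 and 10.76 (log2 difference 2.27, SE 0.32, adjusted p = 0.0375 from limma), before BB770978_P1 with 2.01 and AW120561_P1 with 1.93. The groups did not overlap on any of these probes, by the rule that chose them.

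Of the probes with a design number alone, ASMM9PARTA043669 read 11.02 and 11.09 in the IPC AAR and 4.95 and 4.43 in the sham AAR (log2 difference 6.37, SE 0.23, adjusted p = 0.014 from limma). ASMM9PARTA031728 read 13.34 and 13.36 against 7.65 and 7.41 (log2 difference 5.82, SE 0.16, adjusted p = 0.0123 from limma). In the other direction, ASMM9PARTA038762 read 4.23 and 3.90 against 10.30 and 10.84 (log2 difference -6.50, SE 0.27, adjusted p = 0.014 from limma), next to ASMM9PARTA016481, the probe assigned to Gm6706. The IPC AAR values of ASMM9PARTA038762 lay close to the lowest signals that counted as well above background there, 4.13 and 3.88. With normexp, another background correction, its log2 difference was -4.09. The files pair none of these design numbers with a gene.

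Protein-coding genes could be named for few probes. The files held 118 RefSeq NM_ accessions, 112 of which had a symbol in the RefSeq table. Besides the 15 reference genes, 67 probes of this kind were tested and 1 was called (1.49%, against 8.56% of all tested probes). This was Gm20738, a predicted gene that the table places on chromosome Y, at 7.13 and 7.25 in the IPC AAR and 5.80 and 6.10 in the sham AAR (log2 difference 1.24, SE 0.18, adjusted p = 0.039 from limma). The RM arrays of the IPC mice read 7.03 and 7.20. Since all mice were recorded as female, what this probe hybridized to is uncertain, and 13 of the 23 NM_ and NR_ probes placed on chromosome Y were well above background on none of the 4 AAR arrays and 5 on all of them. Of the 13, 6 were well above background on both RM arrays. Among these 6, Sly read 5.97 and 5.80 in the RM against 3.04 and 2.76 in the IPC AAR, so that these RM arrays went against the recorded sex here as at Xist.

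Hsp90ab1, a cytosolic chaperone of the HSP90 family, read 15.09 on both IPC AAR arrays and 16.05 and 16.02 in the sham AAR, with 16.11 and 16.10 in the RM. It passed the test but not the 2-fold limit, with a log2 difference of -0.94 (SE 0.14, adjusted p = 0.0397 from limma) that shrank to -0.37 under scaling to the 75th percentile. Tcstv1, a gene known from the early embryo, was at 7.26 and 7.39 against 6.43 and 6.41 (log2 difference 0.91, SE 0.15, adjusted p = 0.0453 from limma). Jrkl, which encodes a protein with a DNA-binding domain related to transposases, read 4.11 and 4.70 in the IPC AAR, 6.74 in sham mouse 012 and 9.43 in sham mouse 013. It was not called (log2 difference -3.67, SE 0.99, adjusted p = 0.0928 from limma), and was called in 4 of 13 alternative settings, with -5.02 in the fit without sham mouse 012. Vmn1r259, a vomeronasal receptor gene, read 1.41 and 1.90 in the IPC AAR, where it was not well above background, and 5.58 and 4.09 in the sham AAR. It was not called (adjusted p = 0.053 from limma), though it was in 5 of 13 alternative settings.

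The 15 reference genes, each printed on 20 spots, gave 0 calls, a number too small to set against the 8.56% of all tested probes. Gapdh, a glycolytic enzyme, read 18.29 and 18.28 in the IPC AAR and 18.28 and 18.23 in the sham AAR (log2 difference 0.03, SE 0.14). For the 9 housekeeping genes among them the log2 difference ran from -0.68 for Tbp, the TATA-binding protein, to 0.96 for Tfrc, the transferrin receptor, with a median of 0.03. The groups overlapped for Hprt and Gusb, and the signs of the small differences of Hprt, Gusb and Ppia turned under scaling to the 75th percentile. Nono, which binds Neat1 in paraspeckles, read 11.70 and 11.73 in the IPC AAR, 12.12 and 12.14 in the sham AAR and 12.41 and 12.43 in the RM. Its log2 difference of -0.42 (SE 0.14) did not pass the test (adjusted p = 0.127 from limma). Tuba1b, a tubulin of the cytoskeleton, read 16.11 and 16.10 against 15.70 and 15.52 and was not called either (log2 difference 0.49, adjusted p = 0.116 from limma), except under scaling to the 75th percentile, where it was 1.13. Tfrc was called in the fit without sham mouse 012, with 1.41.

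**Figure D5:**
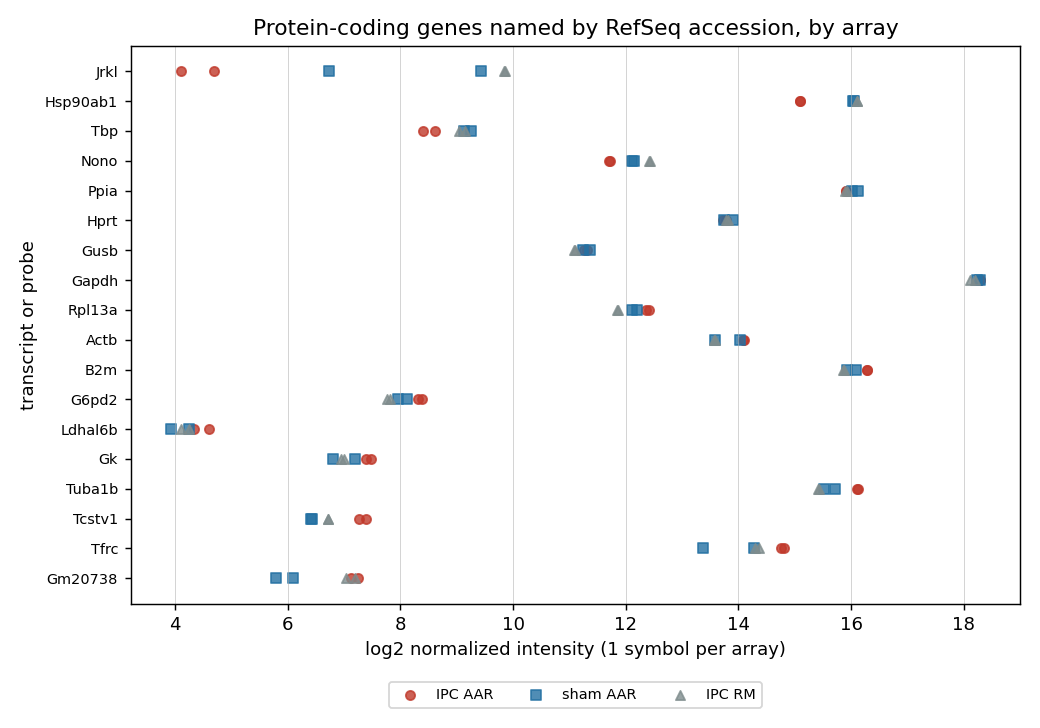
Log2 normalized intensity (horizontal) of the 15 reference genes and of Jrkl, Tcstv1 and Gm20738 (vertical, ordered by the difference between IPC AAR and sham AAR), with 1 symbol per array. Hsp90ab1 is lower on both IPC AAR arrays (15.09) than on all others (at least 16.02), while Gapdh differs little between groups.

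Other pathways could hardly be followed on probes with a gene name. The files named 0 genes of the lists for the immediate early response, the response to hypoxia, mitochondrial energy metabolism, the ubiquitin system, apoptosis and membrane transport. The inflammatory list had 3 tested probes, for the chemokine genes Ccl21b, Ccl21c and Ccl28, with log2 differences of 0.25, 0.39 and 0.74, and 0 were called. Of the tested probes for predicted and RIKEN genes, 1 of 22 was called, the Gm20738 probe described above. With 8.56% of all tested probes called, lists of this size say little.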

How the data were processed

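The members, classes and gene lists were chosen with earlier results of these data known. Per the file headers, the authors extracted the arrays with Agilent Feature Extraction 11.0.1.1. The deposited intensity values used were the processed signals, corrected for background within each array and not normalized between arrays. The authors' later normalization was done in GeneSpring GX. A series table with 6 columns that match no sample record was not used.

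Control spots, 20 negative-control probes and outlier spots were left out, which kept 59709 probes. Log2 values were averaged per probe and quantile normalized over 6 arrays (R 4.3.3, limma 3.58.1). A probe entered the test if both arrays of 1 group or more had it well above background, by 0.5 or more of its spots (43 probes lacked a value on an array). lmFit and eBayes were run on the 4 AAR arrays, with Benjamini-Hochberg adjustment over all tested probes. The procedure was tested on simulated data with normally distributed values and no slide effect, which cannot show that the calls made here hold. Each array of a group came from a separate mouse. SEs and p-values from eBayes combine the spread between these 2 mice per group at a probe with a spread estimated over all tested probes. No array had a saturated spot, and no more than 29 were outliers.

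The transcripts named were, per non-coding class, the 3 probes with the largest differences each way among those called, well above background on all 4 arrays and not overlapping (2 each way for design numbers), with the called NM_ genes, the housekeeping genes, the 20 transcripts listed by the study and members of fixed gene lists. The listed transcripts were matched to probes by the group means in the study's list, and the match was then kept as a fixed table. Jrkl, Vmn1r259, Tcstv1 and the strand pairs were chosen after their values were seen. Alternatives were quantile normalization over 4 arrays, scaling to the 75th percentile, normexp (offset 50), a stricter and no filter, the methods' t-test, all 6 arrays in the fit without and with the mouse as replicate block, an intensity trend, outlier spots kept, and each array left out in turn.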

Additional observations from a re-analysis of the deposited data

How the results depend on the processing

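The count of 3437 called probes depended on single arrays and on the test. With each array left out in turn it ranged from 255 to 9064, with 46 to 4353 higher, 209 to 4711 lower and 9 to 846 among named non-coding probes; the lowest counts came without IPC mouse 004 and the highest without sham mouse 012, and the lone array of a group was then assumed to vary like the other group. Scaling to the 75th percentile gave 2189 higher and 317 named non-coding calls, and normexp 651 and 98. With no filter on dim probes limma called 0 probes, 0 higher, 0 lower and 0 named non-coding, while 15743 had a p below 0.05 before adjustment. The methods' t-test called 2 probes after adjustment, 1 higher, 1 lower and 1 named non-coding, and 3941 before adjustment at the same limits. All 6 arrays in the fit gave 5425 calls, 2027 higher and 354 named non-coding. With the mouse as replicate block these were 5309, 1964 and 344, where the block ties the AAR and RM arrays of the IPC mice and not the IPC to the sham mice. The cause of these shifts was not tested. The other settings kept the counts within 1.5 times.

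Of 921 values of 66 named probes and genes under these 14 settings, 727 kept their direction and side of the threshold, 160 lost the call, 28 gained it and 6 turned. Under scaling to the 75th percentile the log2 difference of Ppia became 0.50, of Hprt 0.42 and of Gusb 0.16. With each array left out it ran from -0.144 to 0.0082 for Hprt and from -0.0878 to 0.0355 for Gusb. Depth limits the dim probes: 13.1% to 24.9% of negative-control spots were themselves marked well above background on the 4 AAR arrays, and arrays differed in the number of such spots.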
